A study of Homo sapiens with 4 samples.

Results

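The genes described here are the heterogeneous nuclear ribonucleoproteins (HNRNP genes, with SYNCRIP and PTBP1) and the serine and arginine rich splicing factors (SR genes SRSF1 to SRSF12, with TRA2A and TRA2B). They were taken by name from the deposited count table, and all 36 names, 22 of the HNRNP kind and 14 of the SR kind, were present among its 59384 gene names. The counts came from RNA sequencing of Daoy cells, an established human medulloblastoma line. Of the 4 libraries, 2 were from cells that had received a lentivirus with a short hairpin against FABP4, a cytosolic carrier of fatty acids (shFABP4), and 2 were from cells that had received the pLKO control virus. The labels give the pLKO cells as WT and the shFABP4 cells as FABP4 knockdown, with no time after infection, and both groups carried a lentivirus. Whether a group's libraries stem from separate cultures is not given in the sources used here. The p-values below therefore set the difference between groups against the spread between these libraries, and that spread may be technical.

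HNRNP and SR proteins bind nascent transcripts and set which exons are kept. SR proteins bind exonic enhancers through RNA recognition motifs and recruit the spliceosome through their arginine and serine repeats, while many HNRNP proteins bind silencers and oppose them. Many of these genes regulate their own transcripts by splicing in or out an exon that sends the transcript to nonsense-mediated decay, and counts summed over all exons of a gene, as here, do not separate such forms.

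The libraries differed in depth and in kind. The shFABP4 libraries held 2539862 (library 1) and 20431660 (library 2) counted fragments, and the pLKO libraries 8988961 and 13839885. The library labelled shFABP4 1 had a fragment in 372 of 385 olfactory receptor genes, against 40 in shFABP4 2 and 51 and 69 in the pLKO libraries. Judged from coding genes silent in the remaining libraries, 54.5% of its fragments were expected as background spread over all exons. FABP4 itself had 14 and 0 fragments in shFABP4 1 and 2 and 1 and 6 in pLKO 1 and 2, with 5.21 expected from background in shFABP4 1, so FABP4 does not check that label and the name shFABP4 1 below is the label alone. Of the markers for the line, VIM, CD44 and S100A6 were abundant, at 1114, 163 and 2852 CPM (counts scaled to the library total) in shFABP4 1, 6412, 533 and 12107 in shFABP4 2 and 1536 to 1552, 330 to 331 and 10270 to 10323 in pLKO, while NES was at 3.89 and 4.99 and SOX9 at 4.67 and 4.77 in pLKO. In shFABP4 2 NES was at 8.81 and SOX9 at 12.2 CPM. FN1 was at 42.7 CPM in shFABP4 2 and at 44.1 and 43.4 in pLKO. In shFABP4 1 FN1, NES and SOX9 held 76, 171 and 68 fragments, where 86.8, 90.3 and 41.9 were expected from background. The summed CPM of 10 markers of other cell types was 636 in shFABP4 1, 62.1 in shFABP4 2 and 17.6 and 21.5 in pLKO. MBP, an oligodendrocyte marker, made up 47.4 of this in shFABP4 2 and 12.9 and 12.3 in pLKO, INS was at 0 in these 3 libraries, and of the 1615 marker fragments in shFABP4 1 886 were expected from background. The part of these markers in the results below was not tested.

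The 36 genes spanned a wide range of levels (the plot of levels per exon length). Levels per length (FPKM, which is CPM divided by the full exon length in kb) ran in the pLKO mean from 0.0600 for SRSF12 over a median of 14.5 to 47.3 for HNRNPL. The 5 highest were HNRNPL, which binds CA-rich RNA, PTBP1, which binds pyrimidine tracts and represses neuronal exons, SRSF2 (SC35), an SR protein that marks nuclear speckles, SRSF6, and HNRNPDL, a relative of the AU-rich element binding protein HNRNPD. The first and second of these did not differ beyond the spread of the pLKO pair: HNRNPL was at 47.6 and 47.0 FPKM and PTBP1 at 48.2 and 46.2. In shFABP4 2 the order was different, with HNRNPDL first at 202 FPKM, SRSF2 second at 113 and HNRNPF, a binder of G runs, next at 77.3, against 40.12 and 40.04, 44.5 and 46.3, and 18.3 and 18.9 in pLKO. HNRNPL and PTBP1 took places 16 and 17 in shFABP4 2. All 36 genes together took 0.193% of the fragments of shFABP4 1, 0.535% of those of shFABP4 2 and 0.336% and 0.332% of those in pLKO.

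**Figure D1:**
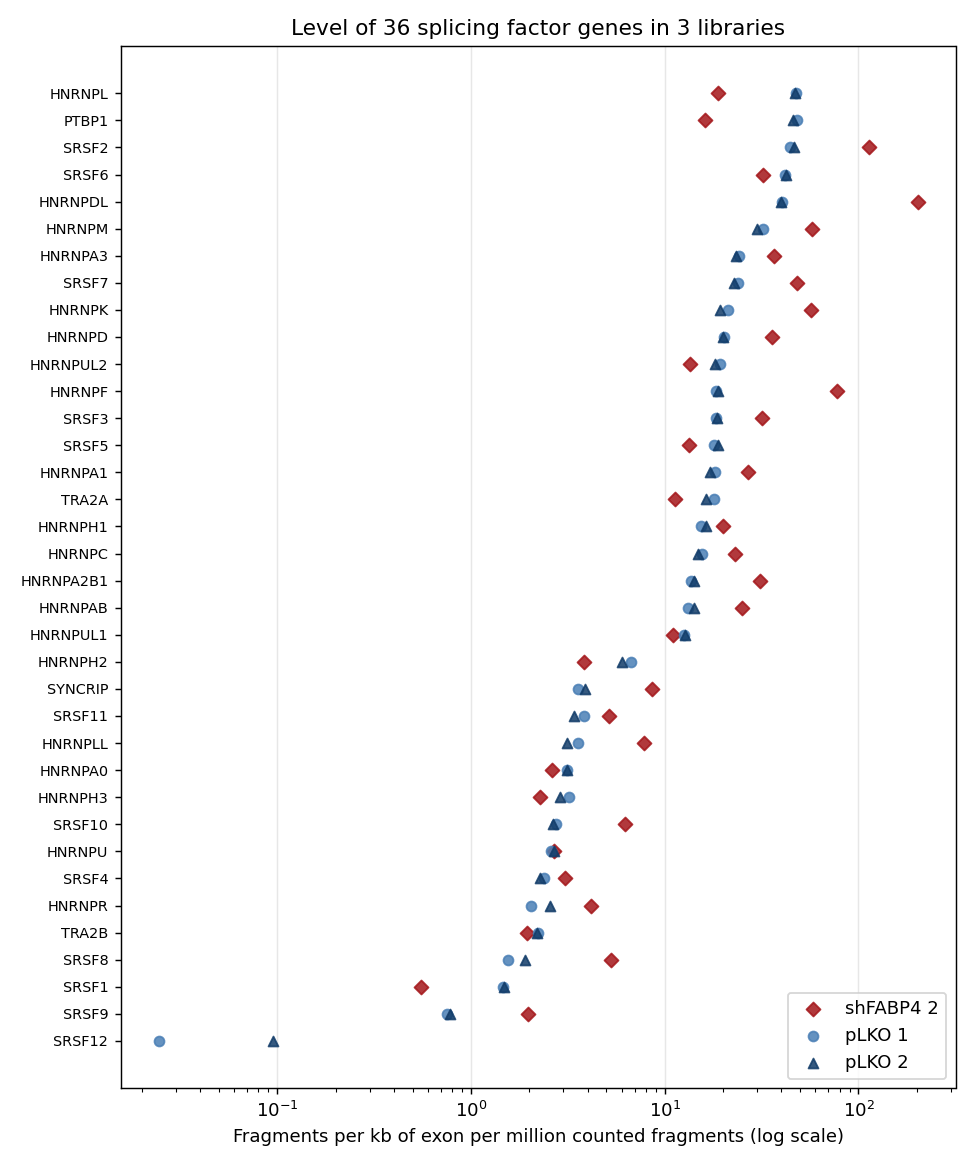
Level of each of the 36 genes (rows, ordered by the pLKO mean) in FPKM (fragments per kb of exon, scaled to the counted fragments of the library) on a log scale, in shFABP4 2 (diamonds), pLKO 1 (circles) and pLKO 2 (triangles). The pLKO points nearly coincide for most genes, and shFABP4 2 lies far to the right for HNRNPDL (202, against 40.12 and 40.04) and to the left for PTBP1 (16.1, against 48.2 and 46.2). SRSF12 has no fragment in shFABP4 2 and is shown for pLKO only.

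In the deposited counting, a fragment that falls on exons of 2 gene names is not assigned to either, since the header shows no option to count it. The share of a gene's exon bases that another name also covers was therefore computed for each of the 36. It was 0 for 17 of them, with a median of 1.37%, against a median of 0 over 18965 coding genes. The largest shares were for SRSF9 (46.7%, all with GATC on the other strand), HNRNPUL2 (44.3%, with its read-through name), SRSF2 (35.8%, all with MFSD11 on the other strand), SRSF1 (35.1%, mostly with the name RP11-159D12.5) and SYNCRIP (27.1%). SRSF1, the founding SR protein, held only 26 and 65 fragments in shFABP4 1 and 2 and 76 and 119 in pLKO, and SRSF9, its closest relative, 26 and 149 against 25 and 40. These counts cover only the part of each gene that no other name overlaps. As FPKM over unshared exon alone SRSF1 was at 0.847 in shFABP4 2 and at 2.25 and 2.29 in pLKO, still among the low members. On that measure SRSF2 was at 69.3 and 72.1 in pLKO, above HNRNPL (52.1 and 51.5) and PTBP1 (48.6 and 46.6). The pLKO order given above thus holds for full exon length only.

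Setting shFABP4 against pLKO asks how targeting FABP4 alters transcript levels in a medulloblastoma line. FABP4 held too few fragments in pLKO (1 and 6) for the counts to show its knockdown. With all 4 libraries, none of the 35 members that passed the low-count filter was called over all genes (0 of 14735 genes at an adjusted p under 0.05, edgeR quasi-likelihood test, a background of 0.0% in each direction). An unadjusted p under 0.05 was reached by 1 of the 35 members, PTBP1, and by 1818 of the 14735 genes. DESeq2 and limma-voom also called 0 members, while DESeq2 called 695 genes (3.59% higher and 1.13% lower), and without the filter edgeR called 0 members and 69 genes (0.13% higher and 0.00191% lower). The members' log2 fold changes ran from -2.15 to 1.22, with a median of -0.24, beside a median of 0.34 over all genes tested. The smallest adjusted p among members, 0.391, was shared by PTBP1 (log2 fold change -2.15, SE 0.76) and HNRNPL (-2.02, SE 0.78), and HNRNPH2 followed (-1.44, SE 0.62, adjusted p = 0.392, edgeR). On 2 libraries a side an exact permutation test cannot go below p = 0.333.

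What shFABP4 1 can show of these genes depends on how far each stands above its background there (the plot of counted against expected fragments). The counts of the 36 genes in that library were 0.561 to 17.7 times the background expected from their length and GC content, with a median of 2.58. They were under 2 times for 13 genes, and under the expectation itself for TRA2B (37 fragments, 65.9 expected) and SRSF1 (26, 29.1 expected). SYNCRIP, also called hnRNP Q, was at its expectation (40, 39.8 expected). The expectation uses the full exon length, although fragments on exon shared with another name are not assigned. It is therefore too high for genes with much shared exon, such as SRSF9 (46.7%), HNRNPUL2 (44.3%), SRSF2 (35.8%), SRSF1 (35.1%) and SYNCRIP (27.1%). These values thus do not place SRSF1 and SYNCRIP at or under the background of their unshared exon. Set alone against pLKO over all genes, this library gave 1 member higher (SRSF12) and 34 lower, with 56.6% of genes called higher and 29.3% lower. At 5 times or more were 13 genes, led by HNRNPDL (492 fragments, 27.9 expected), SRSF2 (217, 23.0 expected) and HNRNPF (238, 25.3 expected).

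**Figure D2:**
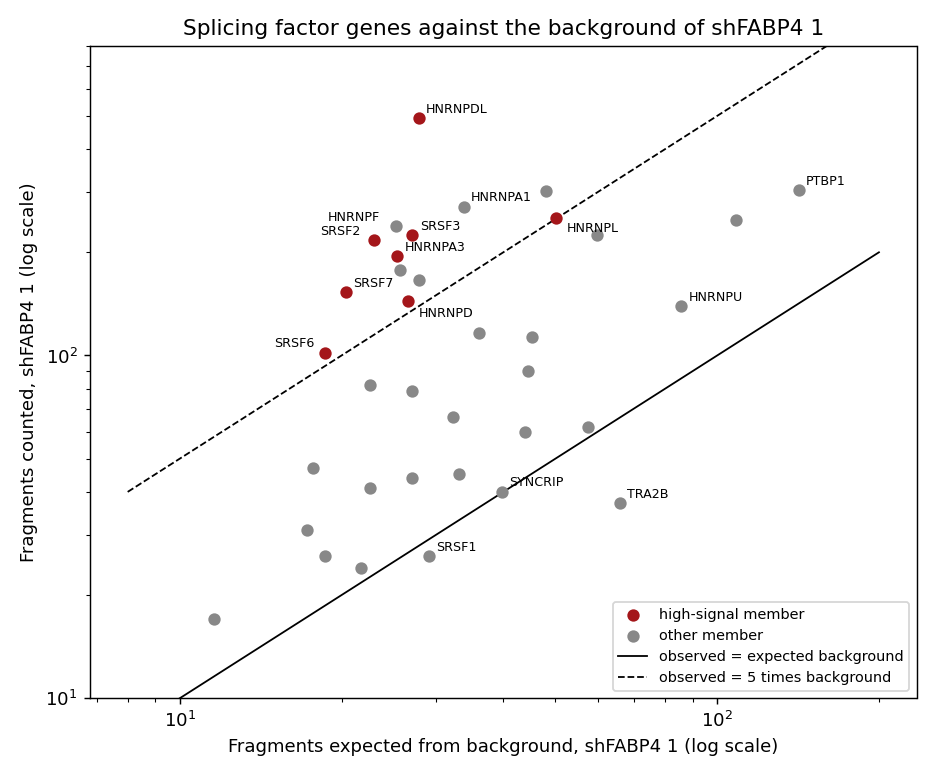
Fragments counted in the library labelled shFABP4 1 (vertical, log scale) against those expected there from background (horizontal, log scale) for each of the 36 genes. Points on the solid line equal the expectation and points on the dashed line are at 5 times it; red points are the 8 high-signal members, of which HNRNPDL lies highest (492 counted, 27.9 expected), and TRA2B lies below the solid line.

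A second fit was therefore made over genes that stand above that background by their pLKO level alone. It took 1038 coding genes whose RNA fragments expected in shFABP4 1 from the pLKO pair reached 5 times or more the background there (called high-signal genes), and scaled the libraries over these genes. The level of a gene in shFABP4 2 did not enter its selection, but that library helped define the silent genes behind the background rate. The set favours genes that are high in pLKO. Of the 36 genes 8 entered: SRSF6, HNRNPDL, HNRNPA3, HNRNPL, SRSF2, HNRNPD, SRSF3 and SRSF7, at 12.8 down to 5.35 times, with HNRNPH1 at 4.84 and HNRNPK at 4.63 just outside.

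Among these 8, 5 rose in shFABP4 (SRSF2, SRSF3, SRSF7, HNRNPDL and HNRNPA3) and 0 fell at an adjusted p under 0.05. Over all high-signal genes 10.6% were called higher and 11.9% lower (110 and 124 of 1038, edgeR). The 8 members had a median log2 fold change of 1.05, against -0.05 over the set. Libraries are scaled to a fixed sum, so more RNA of a gene per cell and more cells that carry it cannot be told apart in these data. Values below are CPM normalised over the high-signal genes unless another scale is named. On that scale both shFABP4 libraries lay above both pLKO libraries for 34.5% of the 1038 genes and below for 41.5%. With the expected background of shFABP4 1 subtracted the shares were 29.9% and 47.0%. On plain CPM the groups overlapped for HNRNPDL, HNRNPD, HNRNPA3, SRSF2, SRSF3 and SRSF7.

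HNRNPDL showed the largest fold change of the 8. Its 492 and 22805 fragments in shFABP4 1 and 2, against 1994 and 3064 in pLKO 1 and 2, correspond to 1156 and 2110 normalised CPM in shFABP4 and 347 and 347 in pLKO. Both shFABP4 libraries lay above both pLKO libraries, also when the expected background was subtracted from shFABP4 1 (1091). The means were 1633 ± 674 in shFABP4 and 347 ± 0.267 in pLKO (SD, n = 2 each), a difference of 2.24 on the log2 scale (edgeR, SE 0.35, adjusted p = 0.0330). HNRNPDL has no exon bases in common with another name. Its neighbour in family and on chromosome 4, HNRNPD (AUF1), had 144 and 5088 fragments in shFABP4 and 1267 and 1925 in pLKO, or 338 and 471 normalised CPM in shFABP4 and 220 and 218 in pLKO. The groups did not overlap, but HNRNPD did not pass (0.90, SE 0.21, adjusted p = 0.0583, edgeR).

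The SR genes that rose were SRSF2, SRSF3 and SRSF7. SRSF2 was at 510 and 634 normalised CPM in shFABP4 and at 207 and 216 in pLKO, 1.44 higher on the log2 scale (SE 0.17, adjusted p = 0.0266, edgeR). SRSF7, a shuttling SR protein with a zinc knuckle, was at 360 and 368 in shFABP4 and at 151 and 144 in pLKO (1.30, SE 0.12, adjusted p = 0.0246, edgeR). SRSF3, the smallest SR protein and an adaptor for mRNA export, was at 527 and 426 in shFABP4 and at 204 and 208 in pLKO (1.20, SE 0.16, adjusted p = 0.0271, edgeR). For each of these 3 both shFABP4 libraries lay above both pLKO libraries, and they did so with background subtracted (456 for SRSF2, 312 for SRSF7 and 463 for SRSF3 in shFABP4 1). Over all high-signal genes 34.5% lay above, and 29.9% with background subtracted. The counts of SRSF2 rest on the part of the gene that MFSD11 does not overlap.

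HNRNPA3, a relative of the splicing repressor HNRNPA1, was the other gene that rose. It was at 458 and 462 normalised CPM in shFABP4 and at 252 and 243 in pLKO, 0.89 higher on the log2 scale (SE 0.12, adjusted p = 0.0266, edgeR). The groups did not overlap, and 399 remained in shFABP4 1 after subtraction of background.

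SRSF6 and HNRNPL did not pass. SRSF6 was at 240 and 298 normalised CPM in shFABP4 and at 321 and 325 in pLKO (-0.25, SE 0.16, adjusted p = 0.306, edgeR), with both shFABP4 libraries below. HNRNPL was at 592 and 232 in shFABP4 and at 483 and 478 in pLKO (-0.26, SE 0.51, adjusted p = 0.718, edgeR), so that shFABP4 1 lay above the pLKO libraries and shFABP4 2 below. With background subtracted HNRNPL in shFABP4 1 was at 474, just under the pLKO libraries.

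**Figure D3:**
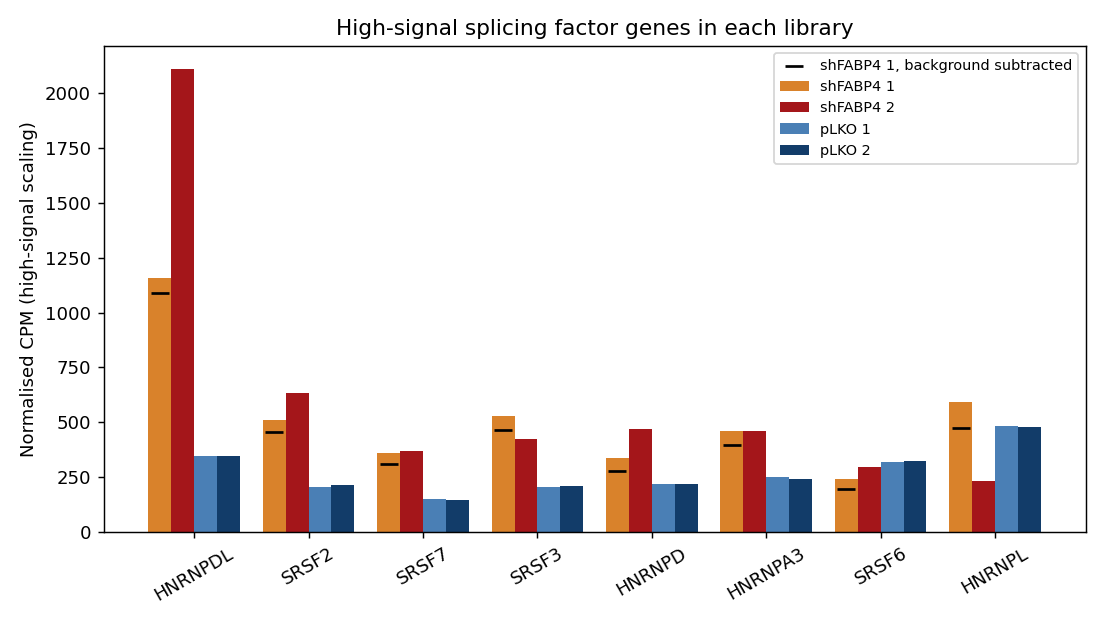
Normalised CPM (scaled over the high-signal genes) of the 8 high-signal members in each library, 1 bar per library with the shFABP4 libraries left of the pLKO libraries; the black dash marks shFABP4 1 with its expected background subtracted. In HNRNPDL, SRSF2, SRSF7, SRSF3, HNRNPD and HNRNPA3 both shFABP4 bars stand above both pLKO bars, while HNRNPL has shFABP4 1 at 592 and shFABP4 2 at 232 around pLKO values of 483 and 478.

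With either pLKO library left out 0 of the 1038 genes passed (smallest adjusted p 0.0713 and 0.0780, edgeR), and 0 members passed with libraries scaled by all their fragments (log2 fold changes of the 5 from 0.02 for HNRNPA3 to 1.56 for HNRNPDL) or with a multiple of 2 in place of 5 (0.70 for HNRNPA3 to 2.10 for HNRNPDL). With background set by length alone the set held HNRNPDL and SRSF2 of the 5, and neither passed, at 2.35 and 1.53 on the log2 scale (adjusted p = 0.0803 and 0.0684, edgeR). The shFABP4 libraries taken singly gave 6 members higher and 1 lower without shFABP4 1 (45.1% and 46.3% of genes) and 7 higher and 1 lower without shFABP4 2 (35.8% and 38.6%), the lower one being HNRNPL in shFABP4 2 and SRSF6 in shFABP4 1, where HNRNPL was higher. DESeq2 called 6 members higher (19.4% of genes higher, 16.2% lower), and so did upper-quartile scaling (14.4% and 10.1%), limma-voom (18.2% and 21.6%) and the replicate block (13.8% and 18.6%), HNRNPD being the one added. After correction for GC content and length (9.44% of genes higher, 8.48% lower) SRSF2 (1.17) and SRSF7 (0.85) passed (adjusted p = 0.0388 and 0.0371, edgeR), while SRSF6 passed as lower (-0.75, adjusted p = 0.0499, edgeR). HNRNPDL, at 1.83 after that correction against 2.24 before it, did not pass (adjusted p = 0.0521, edgeR), nor did SRSF3, at 0.65 against 1.20 (0.0822), and HNRNPA3, at 0.36 against 0.89 (0.123). The median of the 8 members was 0.50 after the correction, against 1.05 before it. The 8 members had a median GC content of 40.5%, against 45.9% for the high-signal genes called higher, 57.9% for those called lower and 53.8% for the others; the part of GC content in the calls was not tested beyond that correction.

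The promoters of the called genes that the RefSeq table holds are shown, with those of HNRNPL and PTBP1, which were lower in shFABP4 2, for comparison. Each is the 250 bases before the annotated start (RefSeq, GRCh38.p14), 5′ to 3′ on the gene's strand, and capitals mark the E-box letters CACGTG, the CCAAT box (CCAAT or ATTGG) and the ETS core (CCGGAAG or CTTCCGG).
HNRNPDL (chr4:82430226-82430475, minus strand): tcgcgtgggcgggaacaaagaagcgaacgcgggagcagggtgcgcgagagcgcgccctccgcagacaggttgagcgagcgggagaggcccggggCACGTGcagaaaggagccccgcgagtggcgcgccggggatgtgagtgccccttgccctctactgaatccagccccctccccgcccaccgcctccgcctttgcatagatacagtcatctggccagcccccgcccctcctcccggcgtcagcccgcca
HNRNPA3 (chr2:177212544-177212793, plus strand): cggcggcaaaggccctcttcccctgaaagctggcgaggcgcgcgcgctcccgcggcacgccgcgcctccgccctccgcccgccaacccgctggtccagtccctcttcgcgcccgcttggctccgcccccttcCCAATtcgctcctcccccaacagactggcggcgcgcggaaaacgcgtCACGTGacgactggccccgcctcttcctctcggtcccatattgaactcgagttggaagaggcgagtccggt
SRSF3 (chr6:36594112-36594361, plus strand): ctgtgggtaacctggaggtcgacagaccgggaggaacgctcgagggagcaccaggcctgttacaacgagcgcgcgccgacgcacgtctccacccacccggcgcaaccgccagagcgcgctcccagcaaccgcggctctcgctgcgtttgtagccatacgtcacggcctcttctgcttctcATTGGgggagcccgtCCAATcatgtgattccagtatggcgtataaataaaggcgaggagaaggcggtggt
SRSF7 (chr2:38751495-38751744, minus strand): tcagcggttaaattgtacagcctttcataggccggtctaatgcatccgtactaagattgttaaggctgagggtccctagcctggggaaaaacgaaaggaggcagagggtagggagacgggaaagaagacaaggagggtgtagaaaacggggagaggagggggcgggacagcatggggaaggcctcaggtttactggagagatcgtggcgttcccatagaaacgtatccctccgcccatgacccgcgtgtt
HNRNPL (chr19:38852348-38852597, minus strand): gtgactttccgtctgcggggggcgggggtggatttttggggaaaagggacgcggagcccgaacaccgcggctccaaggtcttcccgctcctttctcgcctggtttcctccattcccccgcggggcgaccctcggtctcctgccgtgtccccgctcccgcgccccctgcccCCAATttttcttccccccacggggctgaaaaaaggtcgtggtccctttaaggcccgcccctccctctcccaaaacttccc
PTBP1 (chr19:797202-797451, plus strand): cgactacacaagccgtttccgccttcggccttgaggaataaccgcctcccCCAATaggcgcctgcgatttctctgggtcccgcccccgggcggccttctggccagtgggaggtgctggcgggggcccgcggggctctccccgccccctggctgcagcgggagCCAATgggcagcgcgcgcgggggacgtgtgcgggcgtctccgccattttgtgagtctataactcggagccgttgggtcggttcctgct
The RefSeq table held a promoter for 33 members, of which 6 had the E-box letters (18.2%, against 6.34% of 35116 promoters), namely HNRNPDL, HNRNPA3, HNRNPD, HNRNPM, HNRNPH2 and HNRNPH3, of which HNRNPH2 and HNRNPH3 were lower in shFABP4 2. A CCAAT box stood in 16 (48.5%, against 32.0%) and the ETS core in 5 (15.2%, against 8.52%). The letters TATAAA stood in 5 (15.2%, against 10.7%). The GC box GGGCGG or its complement CCGCCC was in 22 (66.7%, against 42.6%), and the median GC content of the window was 66% in members and 58% over all promoters. SRSF7 held none of the marked letters. Neither a match nor its lack says whether a factor binds there. Letters were searched on both strands. HNRNPA1, SRSF2 and TRA2A are not among the 33.

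The deep shFABP4 2 library, with 0.225 fragments per kb of olfactory receptor exon against 0.210 and 0.353 in pLKO (6.56 in shFABP4 1), gives a value for nearly every member when set alone against the pLKO pair. That fit assumes that shFABP4 2 varies as little as the pLKO libraries do (coefficient of variation 0.0434), so its calls compare these 3 libraries. Of 35 members tested 20 were higher and 13 lower, and HNRNPH1 and SRSF4 were not called (edgeR, adjusted p under 0.05). Over all 15301 genes 34.2% were called higher and 32.7% lower. The members' median log2 fold change was 0.37, against 0.04 over all genes. Their median GC content was 41.1%, against 48.8% over the tested genes with a known GC content. No correction for GC content was run on this comparison, so the part of GC content in these values was not tested. Scaling moved all values together. Under TMM over all genes, total counts and the high-signal genes, 22 members lay above pLKO in each of the 3 and 9 lay below in each, while HNRNPU, TRA2B, HNRNPUL1 and HNRNPA0 changed side.

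**Figure D4:**
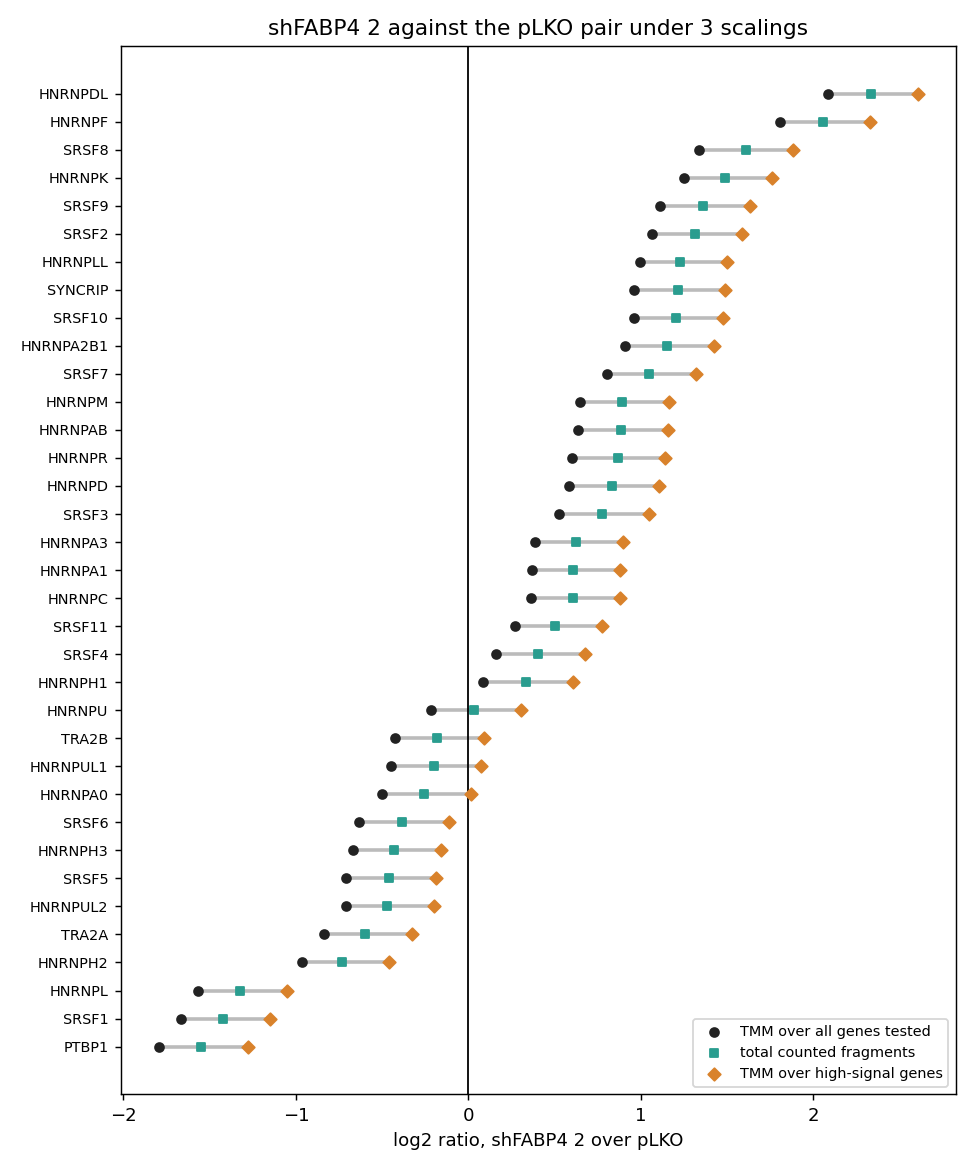
log2 ratio of shFABP4 2 over the pLKO pair (horizontal) for 35 genes (rows, ordered by the first scaling), with TMM over all genes tested (circles), total counted fragments (squares) and TMM over the high-signal genes (diamonds); grey bars join the 3 values of a gene. HNRNPDL (2.09 to 2.61) and HNRNPF (1.81 to 2.33) lie farthest right, PTBP1 (-1.79 to -1.28) farthest left, and the bars of HNRNPU, TRA2B, HNRNPUL1 and HNRNPA0 cross 0.

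Among the HNRNP genes 13 were higher, 8 lower and 1 not called in shFABP4 2. HNRNPDL led with 5.04 times its pLKO mean in CPM scaled to all fragments, followed by HNRNPF with 4.16 times (5168 fragments, against 539 and 855) and by HNRNPK, a KH domain protein that binds C-rich RNA, with 2.81 times (5899, against 966 and 1360). HNRNPLL, known for exon choice in the CD45 transcript of T cells, was at 2.35 times, SYNCRIP at 2.32 and HNRNPA2B1 at 2.23. HNRNPM, which binds GU-rich RNA, was at 1.86 times (57.3 FPKM, against 32.0 and 29.8), HNRNPAB at 1.85, HNRNPR at 1.82, HNRNPD at 1.78, HNRNPA3 at 1.54 and HNRNPA1 and HNRNPC at 1.52. Lower were PTBP1 at 0.341 times (2475 fragments, against 3258 and 4807) and HNRNPL at 0.399 times (2503, against 2779 and 4225). HNRNPH2 was at 0.602 times, HNRNPUL2 at 0.722 and HNRNPH3 at 0.741. HNRNPH1, which was not called, was at 1.26 times, and HNRNPU, HNRNPUL1 and HNRNPA0, which change side with the scaling, were at 1.02, 0.870 and 0.836 times. HNRNPL and PTBP1, both of the L group, were thus on the opposite side from HNRNPLL, whose level in pLKO was far lower (3.56 and 3.14 FPKM).

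Among the SR and TRA2 genes 7 were higher, 5 lower and 1 not called, and SRSF12 was not tested. SRSF8, a retrogene copy of SRSF2, was at 3.05 times pLKO in shFABP4 2, SRSF9 at 2.57, SRSF2 at 2.48, SRSF10 at 2.30, SRSF7 at 2.06, SRSF3 at 1.71 and SRSF11 at 1.42. SRSF4, which was not called, was at 1.32 times and TRA2B at 0.882. SRSF1 was at 0.373 times, TRA2A, a transformer-2 protein that binds exonic enhancers, at 0.661, SRSF5 at 0.726 and SRSF6 at 0.765. SR genes were thus called in both directions in that library. SRSF12 had few fragments. The shFABP4 2 library held 0 fragments (exact 95% Poisson interval 0 to 0.181 CPM; a floor of 3 counts would be 0.147 CPM), and pLKO held 1 and 6, or 0.111 (0.00282 to 0.620) and 0.434 CPM (0.159 to 0.944), intervals that cover counting error only. Its 31 fragments in shFABP4 1 stood beside 17.3 expected from background.

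Taking both shFABP4 libraries on the high-signal scale, with the expected background of shFABP4 1 subtracted, 20 of the 36 genes lay above both pLKO libraries and 8 below. Over all 14735 genes tested 43.0% lay above and 13.3% below. Without subtraction 26 lay above and 2 below (background 63.7% and 4.15%). On plain CPM the counts were 6 and 9 (43.3% and 15.9%). By TMM over all genes they were 1 and 13 (28.5% and 26.1%), so the direction of the list as a whole turns with the scaling. Above by the first count were SRSF2, SRSF3, SRSF7, SRSF10, HNRNPA1, HNRNPA2B1, HNRNPA3, HNRNPC, HNRNPD, HNRNPDL, HNRNPF, HNRNPK and HNRNPM among others. Below by that count were PTBP1, HNRNPL, HNRNPH2, HNRNPUL2, SRSF1, SRSF5, SRSF6 and TRA2A. For SRSF1 and HNRNPUL2 the background subtracted is too large, since it was computed over full exon length. HNRNPF was at 500 and 478 in shFABP4 (559 before subtraction) and at 93.8 and 96.7 in pLKO. HNRNPK was at 356 and 546 in shFABP4, against 168 and 154 in pLKO, and HNRNPM at 386 and 608, against 281 and 262. Both groups stayed apart for each of these 3. HNRNPA2B1 was at 595 and 736 in shFABP4 and at 268 and 279 in pLKO, and HNRNPA1, its closest relative here, at 560 and 339 in shFABP4 and at 190 and 179 in pLKO. HNRNPH1 overlapped, with 188 and 360 in shFABP4 around 229 and 243 in pLKO. PTBP1 lay below, at 379 and 229 in shFABP4 against 567 and 544 in pLKO, but was at 712 in shFABP4 1 before subtraction.

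Ratios of 2 genes within a library do not depend on the scaling (the plot of ratios). HNRNPF and HNRNPH1 are close relatives that bind the same G runs. HNRNPF had 2.05 and 1.33 fragments per HNRNPH1 fragment in shFABP4 1 and 2, and 0.409 and 0.397 in pLKO. The order of their fragment counts was thus turned in both shFABP4 libraries, and subtraction of background gave 2.66 in shFABP4 1. These counts are not corrected for exon length, which is 3273 bases for HNRNPF and 9480 for HNRNPH1. Per length HNRNPF already stood above HNRNPH1 in pLKO (18.3 and 18.9 FPKM, against 15.5 and 16.4). SRSF9 per SRSF1 was at 1 and 2.29 in shFABP4 and at 0.329 and 0.336 in pLKO, from low counts. In shFABP4 1 both held 26 fragments, with 18.6 and 29.1 expected from background over the full exon length. Both expectations are too high, since part of each gene's exon is shared with another name. TRA2A per TRA2B was at 1.27 and 1.56 in shFABP4 and at 2.17 and 2 in pLKO, although TRA2B in shFABP4 1 was under its expected background. TRA2A held 47 and 813 fragments in shFABP4 and 565 and 796 in pLKO, and TRA2B 37 and 520 against 260 and 398. HNRNPA2B1 per HNRNPA1 was at 1.11 and 2.17 in shFABP4, on either side of 1.41 and 1.56 in pLKO. SRSF7 per SRSF3 was at 0.683 and 0.864 in shFABP4 and at 0.739 and 0.693 in pLKO, which overlap. For 3 further pairs, chosen after their values were seen, SRSF2 per SRSF6 was at 2.13 and 2.13 in shFABP4 and at 0.646 and 0.664 in pLKO, and HNRNPDL per HNRNPD at 3.42 and 4.48 in shFABP4 and at 1.57 and 1.59 in pLKO. PTBP1 per HNRNPL, at 1.20 and 0.989 in shFABP4 and at 1.17 and 1.14 in pLKO, overlapped on these counts. Subtraction of background gave 0.798 for this pair in shFABP4 1, and both shFABP4 ratios then lay below both pLKO ratios. No test was run on ratios.

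**Figure D5:**
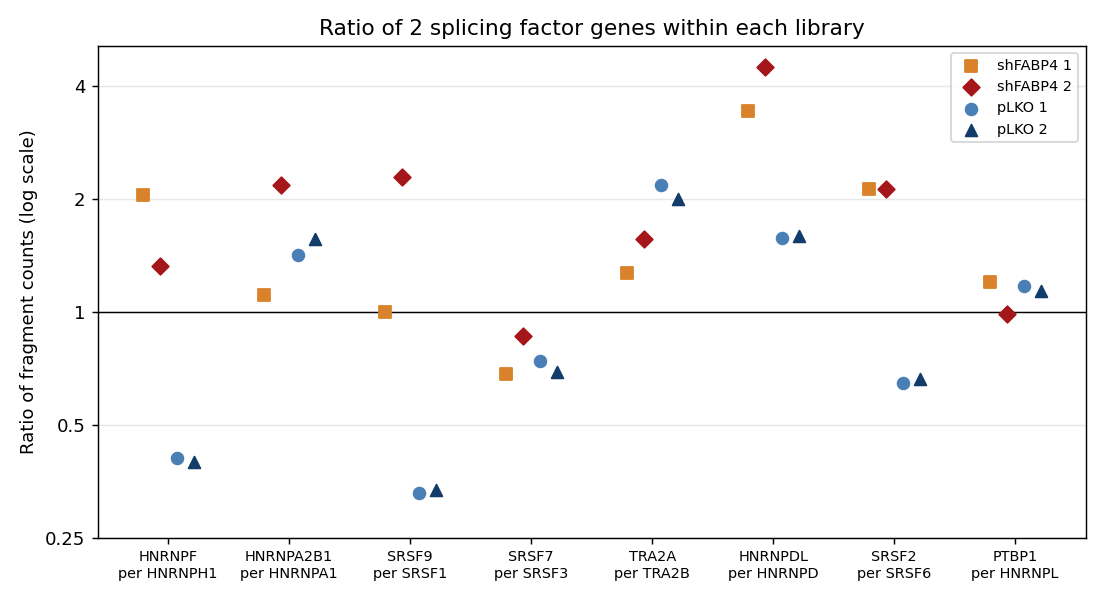
Ratio of the fragment counts of 2 genes within each library (vertical, log scale) for 8 pairs, with the shFABP4 libraries (square, diamond) left of the pLKO libraries (circle, triangle). The shFABP4 points lie above both pLKO points for HNRNPF per HNRNPH1 (2.05 and 1.33, against 0.409 and 0.397), SRSF9 per SRSF1, HNRNPDL per HNRNPD and SRSF2 per SRSF6, below for TRA2A per TRA2B, and on both sides or overlapping for the others.

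Several of these genes have many processed pseudogenes, which can take or lend fragments. The table held 136 names of pseudogenes of 21 members, 75 of them of HNRNPA1. They held 923 fragments in shFABP4 1 (expected background 999.5), 210 in shFABP4 2 and 72 and 105 in pLKO. HNRNPA1 itself had 272 and 3666 fragments in shFABP4 and 1090 and 1580 in pLKO, and its pseudogenes 516 and 65 in shFABP4 and 46 and 54 in pLKO. How fragments that match both were placed is not given in the sources used here, so HNRNPA1, HNRNPA3, HNRNPC and HNRNPK are less certain.

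Other genes of the splicing pathway were counted in 9 lists with 117 genes, all in the table. With all 4 libraries 0 of 114 tested were called over all genes (median log2 fold change -0.48, edgeR). In shFABP4 2 against pLKO 43 of 116 were higher and 49 lower (34.2% and 32.7% over all genes), with a median of -0.05. Of 22 high-signal genes among them 5 rose and 2 fell in shFABP4 (10.6% and 11.9% over the set). Those that rose were SNRPE of the Sm core (log2 fold change 1.59, SE 0.15), SF3B6 of the U2 particle (1.65, SE 0.26), BCAS2 (1.19, SE 0.22) and CWC15 (0.74, SE 0.13) of the PRP19 complex and its partners, and RBMX, an X-linked HNRNP relative (0.65, SE 0.12), with adjusted p from 0.0246 to 0.0367 (edgeR). SNRPB, which encodes the Sm proteins B and B′, fell, with 1105 and 1375 normalised CPM in shFABP4 and 3090 and 3106 in pLKO (-1.32, SE 0.18, adjusted p = 0.0269, edgeR). SF3B5, also of the U2 particle, fell to 296 and 477 in shFABP4, against 1093 and 1048 in pLKO (-1.45, SE 0.28, adjusted p = 0.0430, edgeR). After correction for GC content and length SNRPE, SF3B6 and SNRPB still passed (adjusted p = 0.0359, 0.0460 and 0.0499, edgeR), while BCAS2 (0.111), CWC15 (0.145), RBMX (0.485) and SF3B5 (0.214) did not. In the Sm core SNRPE and SNRPB thus changed in opposite directions, also after that correction.

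In the lists with no call among high-signal genes the smallest p over all genes belonged to genes that did not pass. Among the kinases, phosphatase and importer of SR proteins these were CLK4, with 106 and 88 fragments in shFABP4 and 12 and 41 in pLKO (30.2 expected from background in shFABP4 1), and SRPK1, with 34 and 248 in shFABP4 and 165 and 223 in pLKO (33.7 expected). In shFABP4 2 against pLKO 4 genes of that list were higher and 4 lower of 11. In the exon junction complex MAGOH held 16 and 73 fragments in shFABP4 and 122 and 195 in pLKO, and EIF4A3 147 and 803 against 705 and 1103. USP39 and DDX23 of the tri-snRNP held 83 and 371 and 220 and 776 in shFABP4, against 524 and 839 and 1004 and 1579 in pLKO. In U1 the genes were LUC7L2 (15 and 119 in shFABP4, 97 and 145 in pLKO) and SNRNP70 (475 and 8370 in shFABP4, 6744 and 10017 in pLKO). For LUC7L2 31.8 fragments were expected from background in shFABP4 1. In nonsense-mediated decay they were SMG6 (243 and 21 in shFABP4, 8 and 5 in pLKO, with 171 expected from background in shFABP4 1) and SMG8 (28 and 18 in shFABP4, 2 and 7 in pLKO, with 28.9 expected). Each had an adjusted p of 0.391 to 0.441 (edgeR).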

How the data were processed

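RNA was measured in 4 libraries of Daoy cells, made per the labels' protocols from mRNA captured on beads and fragmented with Tn5. The deposited table holds raw fragment counts per gene name, made by the authors with featureCounts 2.0.0 on the GENCODE 38 annotation, per the file headers, counting read pairs with no strand option, so reads of a gene and of an overlapping gene on the other strand cannot be told apart. The submitters' processing notes name FastQC, HISAT, StringTie and GRCh38. The table's Length column, another deposited value of the authors, is the exon length per gene. Lines of ANK2 (7) were broken and left out, and the 37 mitochondrial names held 0 fragments.

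The test on 59384 names used edgeR 4.0.16 (R version 4.3.3, TMM; filterByExpr required 10 counts, 15 in total; quasi-likelihood F test, two-sided, Benjamini-Hochberg adjusted over all genes tested, threshold 0.05). DESeq2 1.42.0 and limma 3.58.1 were alternatives. Background in shFABP4 1 was a rate per kb of exon, taken separately in 6 classes of GC content from 2655 coding genes silent in the other 3 libraries, 3.81 in the lowest bin and 18.9 in the highest. High-signal genes were fitted separately. GENCODE 29 supplied a type for 63.0% of the names and a GC content for 91.3% of genes averaging 20 counts or more. Counts of the pLKO pair varied beyond Poisson error (reduced chi-square 2.06, 15446 genes), so the pair was kept as 2 samples. For the shFABP4 pair the reduced chi-square was 289 (32373 genes). Over all genes tested the log2 CPM of the shFABP4 libraries correlated at 0.544, and that of the pLKO libraries at 0.987. The library shFABP4 1 correlated at 0.559 with each pLKO library.

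The members and the lists were chosen with earlier results of these data known. Named were all members called in either fit, the 10 highest per kb in pLKO, 5 pairs of close relatives, and in each related list the genes called among high-signal genes or, with none, the 2 with the smallest p. Both fits were tested on simulated data with a common spread for all libraries, whereas the real shFABP4 pair varied far more than the pLKO pair. In the simulated data the fit over all genes missed most of the changed genes. The lack of calls in that fit therefore does not show a lack of change. Intervals and floors (3 counts) cover counting error only.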

Additional observations from a re-analysis of the deposited data

How the results depend on the processing

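Over all genes, 0 genes and 0 members passed; leaving out 1 library gave 0 to 23895 genes and 0 to 35 members, DESeq2 695 genes and no filter 69 genes. Without shFABP4 1 the calls were 10242 genes and 33 members, and without shFABP4 2 they were 23895 genes and 35 members, 34 of them lower. Over the high-signal genes 234 genes and 5 members passed; leaving out 1 library gave 0 to 949 genes and 0 to 8 members, with 0 without pLKO 1 or pLKO 2, 949 genes and 7 members without shFABP4 1 and 773 genes and 8 members without shFABP4 2. HNRNPL reversed without shFABP4 2, to 0.30, and ranged from -0.98 to 0.30 when 1 library was left out. DESeq2 called 369 genes, limma-voom 413, and total-count scaling 2 genes and 0 members. A multiple of 2 gave 0 genes and 0 members, background by length only, with 5 members in the set and 2 of the 5 called ones among them, 0 genes and 0 members, and a multiple of 10, which keeps 1 member, 0 members. The set chosen from 3 libraries, which include shFABP4 2, gave 374 genes and 10 members (18.1% of genes higher, 17.6% lower). HNRNPA2B1, HNRNPC, HNRNPF and HNRNPK entered that set only through their level in shFABP4 2. Their calls as higher follow in part from that choice and are no support. Correcting GC content with length gave 3 members. Total-count scaling moved the median of all genes to 0.996 and that of the high-signal genes to -0.92 on the log2 scale. Except where the number of genes tested or of libraries differs, the cause was not tested.

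With the replicate number as a block, 28 genes and 0 members passed over all genes, and 336 genes and 6 members over the high-signal genes, HNRNPD being added. Same-numbered libraries deviated together with a correlation of 0.0106 over all genes and 0.115 over the high-signal genes, from 2 pairs, and no label gives the numbers a shared origin. Of 420 fold changes of members under alternatives over all genes, 309 kept direction and call, 48 kept direction and became called, and 63 reversed, 19 of them past the threshold. Of 109 over the high-signal genes, 73 kept both, 25 lost the call, 10 gained it and 1, HNRNPL, reversed and passed. The correction for GC content and length over all genes, and the subtraction of background, were chosen after seeing the data. The shallow shFABP4 1 library limits what can be shown for members near its background.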
